A study of Mus musculus with 10 samples.

Results

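The comparison of 24 h with 12 h of doxycycline (DOX) takes in 4 of the 10 samples of a time course, both samples labelled 24h_Dox and both labelled 12h_Dox, and they were chosen by those labels alone. Newly made RNA was read by TT-seq (transient transcriptome sequencing) in TX1072, a female hybrid mouse embryonic stem cell (ESC) line with chromosomes of C57BL/6 (B6) and of Mus musculus castaneus (Cast), in which DOX induces Xist from its endogenous place on the B6 X chromosome. The other 6 samples are pairs at 0, 4 and 8 h. Every group was wild type and grew in serum with LIF and 2i, DOX was given at 1 µg/ml from 24 h after plating, and nascent RNA was labelled with 4-thiouridine at 0.5 mM for 5 min. The 24 h cells had therefore been longer in culture, longer in DOX and longer with Xist RNA than the 12 h cells. These differences cannot be told apart, since no sample kept for the same time without DOX was analysed here. TX1072 is a single line, and the study calls its duplicates biological, while the labels number the replicates and do not name separate cultures, so p-values measure the spread between these samples.

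During X chromosome inactivation, Xist RNA spreads in cis over the chromosome that makes it, brings in repressor complexes and shuts off transcription of most genes there, while a few genes escape. Genes differ in how fast they are shut off, so a late interval shows which of them are still losing transcription once Xist has been on for hours. In TT-seq a short pulse marks RNA made in those minutes, so the reads follow transcription rather than stored mRNA. Reads over strain-specific bases were split by allele, and the d-score of a gene is its B6 reads divided by its B6 plus Cast reads. A d-score that falls on the X chromosome means a smaller share of reads from the B6 copy, the copy that carries the induced Xist.

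In the 4 libraries 19657836 to 22274929 read pairs were counted in genes, and 52.1% to 52.8% of these were assigned to an allele. Of the 24386 genes in the tables, 1028 were X-linked and 23326 autosomal. The ESC marker list was transcribed throughout, with a summed level of 2927 to 3180 CPM (counts scaled to the size of the library) and 1 of its 10 genes, Sox2, at 0 in all 4 libraries. Sox2 lies inside Sox2ot on the same strand. The fibroblast list summed to 4.62 to 5.42 CPM, with 2 of its 8 genes at 0. Replicates with the same number deviated together in total counts, so a fit with the replicate number as a block is given beside the fit without it wherever that changes a result on total counts. CPM values are relative to the library, because spike-in RNA was not used for scaling, and in these bulk samples fewer cells transcribing a gene and less transcription per cell cannot be told apart.

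Xist itself was made at a high level at both times and almost wholly from the B6 allele. It stood at 661 and 516 CPM at 12 h and at 477 and 415 CPM at 24 h, against 1.48 and 1.42 CPM at 0 h. Both 24 h samples lay below both 12 h samples. The log2 difference was -0.40 (adjusted p = 0.494, edgeR quasi-likelihood test) without the block and -0.39 (SE 0.0688, adjusted p = 0.00119) with it. Without the block, the Xist difference was -0.22 when 12 h replicate 1 was left out and -0.56 when 12 h replicate 2 was left out. Allelic reads of Xist numbered 6118 and 5093 from B6 and 12 and 7 from Cast at 12 h. At 24 h they numbered 4277 and 4189 from B6 and 8 and 8 from Cast.

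The X chromosome as a whole went on losing B6 transcription between 12 and 24 h. Over 337 X-linked genes that had 10 or more allelic reads in each of the 10 samples and a d-score of 0.3 to 0.7 at 0 h, the median d-score was 0.325 and 0.326 in the 12 h samples and 0.283 and 0.284 in the 24 h samples. The mean of the medians went from 0.326 ± 0.000764 (SD, n = 2) to 0.283 ± 0.000581 (SD, n = 2), a difference of -0.0426, and the groups did not overlap. Autosomal genes chosen in the same way (10337) had medians of 0.521 and 0.522 at 12 h and 0.522 and 0.522 at 24 h. An exact two-sided permutation test of 2 against 2 samples cannot give a p below 0.333, so the medians carry no test of their own.

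**Figure D1:**
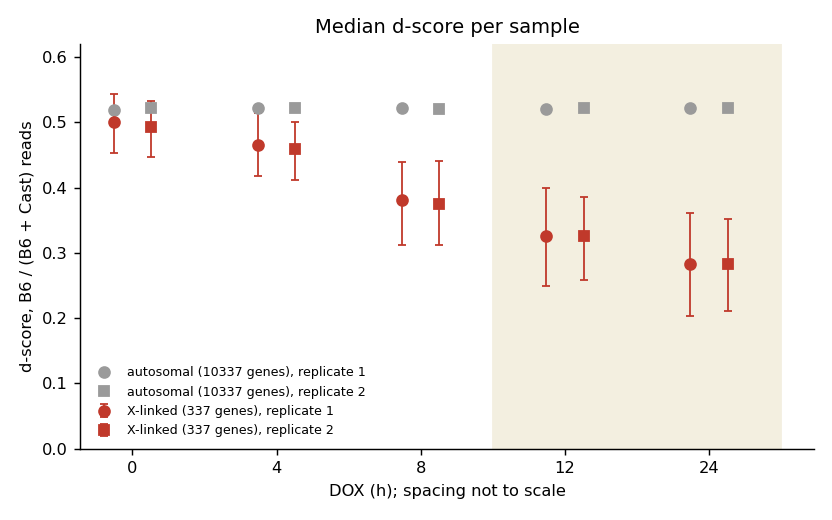
Median d-score of each of the 10 samples against hours of DOX, for 337 X-linked genes (red, bars from the lower to the upper quartile of genes) and 10337 autosomal genes (grey); circles are replicate 1, squares replicate 2, and the shaded band marks the 12 and 24 h samples. The X-linked medians sit at 0.325 and 0.326 at 12 h and at 0.283 and 0.284 at 24 h, while the autosomal medians stay between 0.519 and 0.522 at all times.

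The shift was spread over the whole distribution of X-linked genes. Genes with a d-score below 0.1 numbered 6 and 3 in the 12 h samples and 14 and 10 in the 24 h samples. Genes below 0.3 numbered 131 and 130 at 12 h and 184 and 187 at 24 h. At the other end, 43 and 37 genes were above 0.45 at 12 h and 21 and 22 at 24 h. Thus at 24 h a group of X-linked genes still gave nearly balanced reads, and few were fully silent on the B6 copy. Pooling the reads of all 1027 X-linked genes other than Xist, with no filter on reads or balance, gave d-scores of 0.345 and 0.346 at 12 h. At 24 h they were 0.315 and 0.308.

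Gene by gene, 25 of 362 X-linked genes tested had a lower B6 share at 24 h than at 12 h, and 0 had a higher one (edgeR quasi-likelihood test on B6 and Cast counts, adjusted p under 0.05). In the same test 0.235% of all 11905 genes were lower and 0.0084% higher. At an unadjusted p under 0.05, 119 X-linked genes were lower and 4 higher, and the fitted change was negative in 290 of 362, and the B6:Cast ratio had a median log2 change of -0.25. Among 11543 autosomal genes 3 were lower and 1 higher. In 186 X-linked genes (51.4%) both 24 h d-scores lay below both 12 h d-scores, against 17.3% of all genes tested, and in 12 (3.31%) both lay above, against 16.7% of all genes. limma-voom called 23 X-linked genes lower, DESeq2 called 2 (Gpc3 and Firre), and neither called one higher. With a 12 h or 24 h library left out fewer genes were called, and not all of those were among the 25. All 25 genes kept their sign under every alternative tried.

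**Figure D2:**
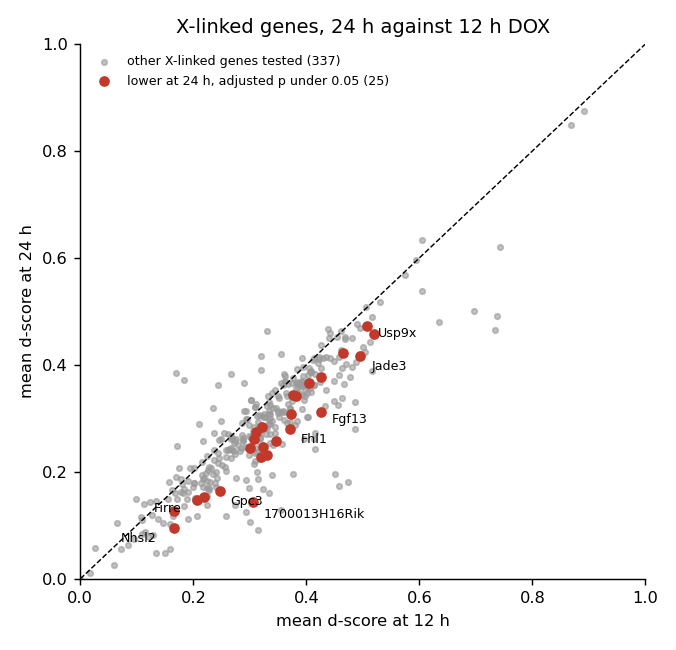
Mean d-score of each X-linked gene tested at 12 h (horizontal axis) and at 24 h (vertical axis), each the mean of 2 samples; the dashed line marks equal values. The 25 genes that passed the test (red) all lie below the line, from Nhsl2 at the lower left to Usp9x and Uba1 at the upper right, and 337 other genes are grey.

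Gpc3 showed the change with the smallest p. It encodes glypican 3, a heparan sulfate proteoglycan of the cell surface, and lies at chrX:52272427-52613974 (mm10) on the minus strand. Its d-score was 0.237 and 0.256 at 12 h and 0.163 and 0.165 at 24 h, from 0.479 and 0.473 before DOX. Its B6:Cast ratio changed by -0.74 on the log2 scale (SE 0.0529, adjusted p = 7.79e-23). The counts behind it were 1648 and 1801 B6 reads at 12 h and 925 and 1004 at 24 h, while Cast reads numbered 5292 and 5243 at 12 h and 4741 and 5077 at 24 h.

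Firre, a long noncoding RNA gene of the X chromosome that takes part in nuclear organisation, lies close by at chrX:50563120-50635321 on the same strand. Its d-score was 0.200 and 0.238 at 12 h and 0.135 and 0.171 at 24 h, with a log2 change of -0.63 (SE 0.0856, adjusted p = 1.79e-07). B6 reads of Firre went from 457 and 621 to 303 and 485, and Cast reads from 1830 and 1985 to 1944 and 2355. The 250 bases before the start of these 2 genes, which passed the test in every alternative run, are shown from RefSeq (GRCm38.p6, minus strand, 5′ to 3′; chrX:52613975-52614224 and chrX:50635322-50635571), with capitals for the CCAAT box, for the GC box (GGGCGG, read as its complement on the other strand) and for the TATA box (TATAAA), each searched on both strands.
Gpc3: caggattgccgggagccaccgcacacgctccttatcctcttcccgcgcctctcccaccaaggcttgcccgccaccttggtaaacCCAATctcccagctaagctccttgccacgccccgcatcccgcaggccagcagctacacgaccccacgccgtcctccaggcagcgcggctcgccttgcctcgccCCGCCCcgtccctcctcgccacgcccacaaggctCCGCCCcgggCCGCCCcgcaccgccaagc
Firre: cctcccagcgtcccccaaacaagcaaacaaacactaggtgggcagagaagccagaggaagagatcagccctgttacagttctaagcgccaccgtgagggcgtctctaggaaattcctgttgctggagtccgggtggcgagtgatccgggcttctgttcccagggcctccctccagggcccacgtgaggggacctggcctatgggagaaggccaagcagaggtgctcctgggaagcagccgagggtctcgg
The Gpc3 window holds 1 CCAAT box, 3 GC boxes and 25 CpG sites, and the Firre window holds 10 CpG sites and no match to the 3 motifs. Of 32851 RefSeq windows of this length, 33.8% hold the CCAAT box, 32.7% the GC box and 12.4% the TATA box, and the median window has 6 CpG sites. The motifs do not overlap each other, and a match describes the letters only.

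The other genes of the 25 are given here by what each is known for, with no test of any grouping. Fhl1, a LIM-domain protein, had d-scores of 0.367 and 0.375 at 12 h and 0.286 and 0.274 at 24 h (log2 change -0.60, SE 0.0902). Fgf13, an intracellular member of the fibroblast growth factor family, went from 0.427 and 0.425 to 0.336 and 0.287 (log2 change -0.71, SE 0.128). Dmd, which encodes dystrophin, was already low at 0.152 and 0.180 and reached 0.120 and 0.133 (log2 change -0.45, and -0.30 without 12 h replicate 2). In these genes, as in all 25, both 24 h d-scores lay below both 12 h d-scores, beside 51.4% of all X-linked genes tested. The 25 genes were chosen on these same reads. Nhsl2 stood at 0.159 and 0.174 at 12 h and at 0.103 and 0.0868 at 24 h, the lowest 24 h mean of the 25. Flna (filamin A), Shroom2 and Mcf2, a guanine nucleotide exchange factor, also fell, with log2 changes of -0.66, -0.33 and -0.21.

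Atrx, a chromatin remodeller, had d-scores of 0.315 and 0.327 at 12 h and 0.283 and 0.284 at 24 h (log2 change -0.26, SE 0.0398, adjusted p = 3.8e-06). Pola1, the catalytic subunit of DNA polymerase alpha, went from 0.379 and 0.384 to 0.335 and 0.347. Jade3, a subunit of histone acetyltransferase complexes, went from 0.494 and 0.497 to 0.413 and 0.420 (log2 change -0.46, SE 0.0787). Before DOX Jade3 stood at 0.584 and 0.607, above an equal share. Kif4, a chromosome-associated kinesin, and Zfp280c, a zinc finger protein, fell with log2 changes of -0.41 and -0.61.

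Uba1 is the main ubiquitin-activating enzyme, Usp9x a deubiquitinase and Huwe1 a ubiquitin ligase. Uba1 stood at 0.517 and 0.523 at 12 h, near its 0 h values of 0.530 and 0.550, and at 0.458 and 0.457 at 24 h. Usp9x went from 0.505 and 0.509 to 0.472 and 0.472, and Huwe1 from 0.313 and 0.308 to 0.282 and 0.267. The changes of Uba1 and Usp9x were small in size, log2 -0.36 (SE 0.086) and -0.20 (SE 0.0371). Rps4x, a ribosomal protein gene, fell with a log2 change of -0.30 and Gk, glycerol kinase, with one of -0.60. In size the change of 1700013H16Rik exceeded all others of the 25, with d-scores of 0.293 and 0.318 at 12 h and 0.121 and 0.166 at 24 h (log2 change -1.38, SE 0.290), on 20 to 66 B6 reads a sample.

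The remaining genes that fell were Tmem164, A830080D01Rik, Fmr1nb, Platr21 and Btbd35f15, with log2 changes of -0.71 to -0.24. Btbd35f15 is uncertain: its deposited span runs over 29.8 Mb (chrX:3750926-33577346), 83 other genes lie inside it on the same strand, and 82 of those are at 0 in every sample, so its reads cannot be placed on that gene. Of the 25 genes, 22 were protein coding. They were read more deeply than the X-linked genes tested as a whole, with a median of 1751 allelic reads per sample against 256, and were longer, with a median of 102 kb over 24 genes without Btbd35f15 against 33.6 kb. In 3 classes of rising read depth, 0 of 120, 4 of 121 and 21 of 121 genes passed, while the median log2 changes of these classes were -0.29, -0.31 and -0.21, so in poorly read genes a fall of this size was often not detectable at this depth.

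The alleles were also tested apart. B6 counts alone, scaled to the library, were lower at 24 h in 6 X-linked genes and higher in 0 of 362 (4 higher at an unadjusted p under 0.05; 0.0672% of all genes were lower), with a median log2 change of -0.27. These were Gpc3 (log2 -0.85, SE 0.0975, adjusted p = 5.53e-05), Zfp280c (-0.79), Fgf13 (-0.84), Nhsl2 (-1.13), Gm364 (-1.80) and Sms, spermine synthase (-0.57). With the replicate block 25 genes were lower and 0 higher (0.412% and 0.202% of all genes), and without 1 library at a time 1 to 2 remained. Cast counts were lower or higher in 0 X-linked genes by edgeR (0.0168% of all genes were lower), with 12 lower and 18 higher at an unadjusted p under 0.05 and a median log2 change of 0.01. With the block 1 gene was higher (0.134% of all genes, and 0.168% were lower). In the 25 genes with a lower B6 share, which were chosen on the same reads, Cast changes ran from -0.21 to 0.22, given as a description.

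The second 12 h brought a smaller change than the first. The change of the log2 B6:Cast ratio from 12 to 24 h was set against that from 0 to 12 h in 1 model, in which both intervals use the 12 h samples. The change was smaller in the second interval in 101 of 362 X-linked genes and larger in 0 (edgeR, adjusted p under 0.05; of all genes tested 0.874% differed in the first direction and 0.0504% in the other). At an unadjusted p under 0.05 these counts were 187 and 3. limma-voom called 95 and 0 and DESeq2 56 and 0. The median log2 change was -1.01 in the first interval and -0.25 in the second.

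Several early genes showed little further change. Rlim, a ubiquitin ligase that activates Xist and lies near it, had d-scores of 0.148 and 0.176 at 12 h and 0.171 and 0.160 at 24 h, so its samples overlapped. Its log2 change was -2.46 in the first interval and 0.02 (SE 0.136, adjusted p = 0.998) in the second. Tsix, the antisense gene of Xist, stood at 0.304 and 0.316 at 12 h and at 0.332 and 0.321 at 24 h, with a difference between the intervals of 1.39 (SE 0.105, adjusted p = 1.03e-21). Pgk1, a glycolytic enzyme, had a second-interval change of -0.16 after -1.58. Further genes with small p in this test were Tbl1x, Atrx, C77370, Dmd, Klf8 and Eda, whose second-interval changes ran from -0.45 to -0.16. Of these, Atrx and Dmd also passed the test of the second interval itself.

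Of the 25 genes with a lower B6 share at 24 h, 16 changed less in the second interval than in the first. The share was 27.9% among all X-linked genes tested, and 77 of 121 genes passed in the class with the most allelic reads. The count of 16 is thus near that of well-read genes. The 25 genes were chosen on their second-interval change in these same reads, and that change enters this difference. Their values here are therefore a description only. In the other 9 the difference between the intervals was not detectable. For Uba1 the changes were -0.12 and -0.36, with a difference of -0.24 (SE 0.146, adjusted p = 0.866). For 1700013H16Rik they were -0.59 and -1.38, with a difference of -0.79 (SE 0.451, adjusted p = 0.849). Jade3 and Fgf13 gave differences of 0.13 (SE 0.132) and 0.11 (SE 0.208).

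**Figure D3:**
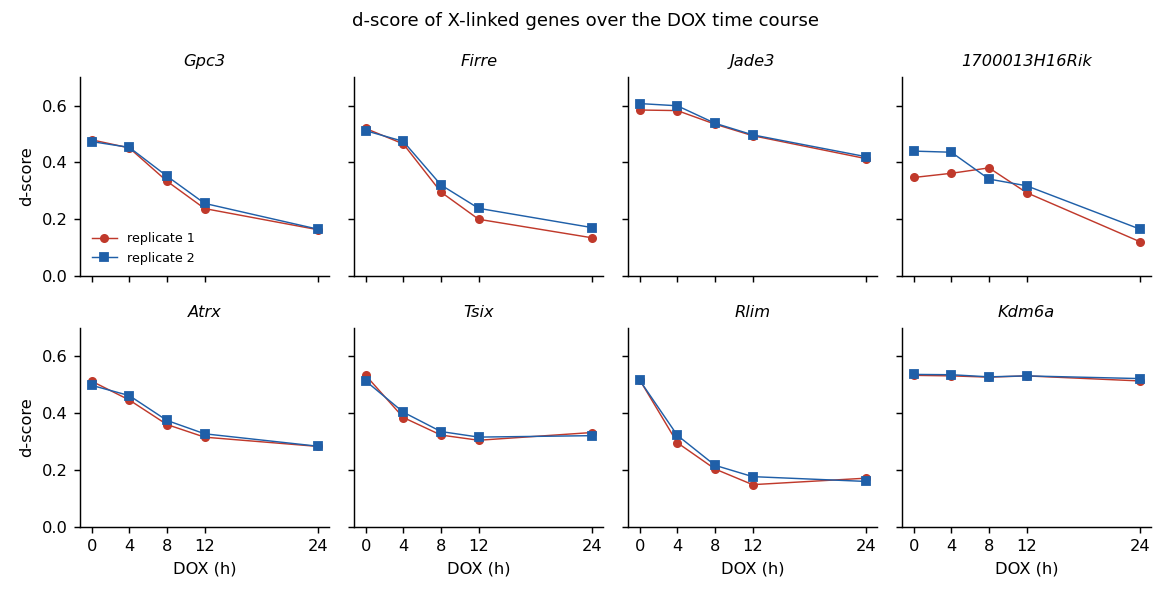
d-score (vertical axis, B6 reads over B6 plus Cast reads) of 8 X-linked genes against hours of DOX, with a line for each replicate. Gpc3, Firre, Jade3 and 1700013H16Rik go down between 12 and 24 h in both replicates, Atrx less so. Tsix is slightly higher at 24 h than at 12 h in both replicates, and for Rlim the 2 times overlap. Kdm6a stays between 0.513 and 0.536 throughout.

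Genes silenced at different speeds before 12 h differed little in their late change. The d-score of each gene at 8 h was divided by its 0 h d-score and by 2, so that an unchanged gene stands at 0.5, and these classes share no sample with the late comparison. In 109 genes at or under 0.35 the median log2 change from 12 to 24 h was -0.26, and 7 passed the test, with median d-scores of 0.231 and 0.239 at 12 h and 0.200 and 0.205 at 24 h. In 173 genes of 0.35 to 0.45 it was -0.26, with 13 past the threshold. In 55 genes above 0.45 it was -0.20, with 5 past it and median d-scores of 0.417 and 0.386 at 12 h and of 0.388 and 0.375 at 24 h. Among all X-linked genes tested 6.91% passed, and the counts of the classes were not tested against that share. Median allelic reads were 287, 402 and 172 in these classes, in the same order. The slowest class thus had the smallest median change, but its samples overlapped, and the difference between the classes was not tested.

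Position along the X chromosome was described in the same way. Within 10 Mb of Xist the median log2 change was -0.17 (68 genes, 4 past the threshold), at 10 to 30 Mb it was -0.18 (51 genes, 4), at 30 to 60 Mb -0.30 (166 genes, 13) and beyond 60 Mb -0.27 (77 genes, 4). The share past the threshold among all X-linked genes tested was 6.91%, and the classes were not tested against it. The class beyond 60 Mb includes Btbd35f15, whose reads cannot be placed, and the steps of 10 Mb below leave it out. In steps of 10 Mb, 7 of the 25 genes lay 40 to 60 Mb from Xist towards the centromere, namely Zfp280c, Firre, Gpc3, 1700013H16Rik, Fhl1, Fgf13 and Mcf2. The 44 genes tested in those 2 steps had median log2 changes of -0.42 (26 genes) and -0.35 (18 genes). The steps at 20 to 40 Mb on the same side had medians of -0.18 (44 genes) and -0.13 (22 genes), with 1 gene past the threshold in each. These stretches were picked after their values were seen, and genes of 1 stretch share their neighbourhood.

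**Figure D4:**
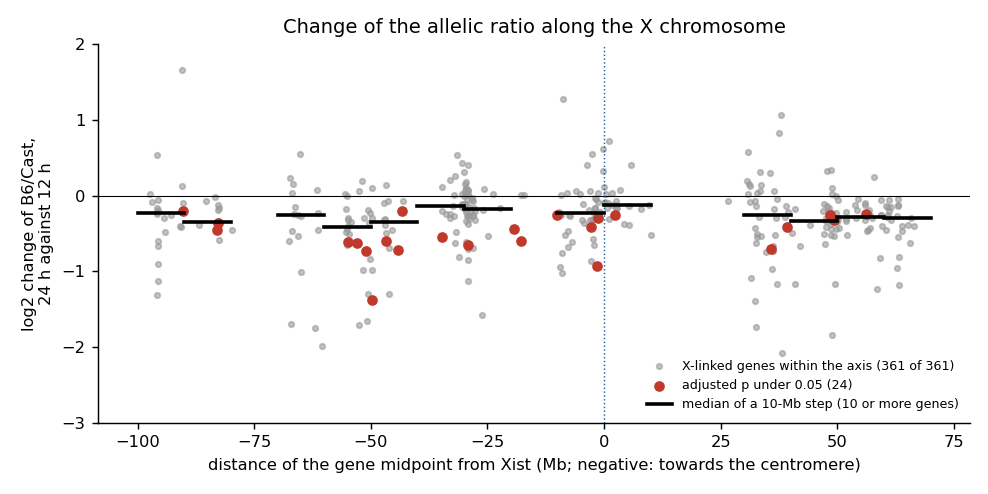
Change of the B6:Cast ratio from 12 to 24 h on the log2 scale (vertical axis) of 361 X-linked genes against the distance of the gene midpoint from Xist in Mb (horizontal axis, negative towards the centromere); red points passed the test, black bars are medians of 10-Mb steps with 10 or more genes, and Btbd35f15 is left out. All red points lie below 0, and the lowest median, -0.42, is that of the step 50 to 60 Mb towards the centromere.

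Genes known to escape X inactivation were taken from a list. Of 13 listed escape genes 9 had enough allelic reads, 0 had a changed B6 share by edgeR, limma-voom or DESeq2, and 1 was lower at an unadjusted p under 0.05, Mid1. Of all X-linked genes tested 6.91% passed, so a count of 0 in 9 is near that share. The median log2 change of the list was -0.08, beside -0.25 for all X-linked genes tested. Kdm6a, a histone H3K27 demethylase, had d-scores of 0.531 and 0.531 at 12 h and 0.513 and 0.522 at 24 h. Kdm5c, a histone H3K4 demethylase, stood at 0.389 and 0.330 at 12 h and at 0.383 and 0.341 at 24 h. Ddx3x, an RNA helicase, stood at 0.437 and 0.422 and then at 0.427 and 0.398. Thus Kdm5c and Ddx3x were below balance at both times, and for Kdm5c the 24 h values lay between the 12 h values. Mid1, a ubiquitin ligase of microtubules, went from 0.510 and 0.432 to 0.410 and 0.394 (log2 change -0.41, SE 0.115, adjusted p = 0.135).

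A further list holds the X-linked genes shown as examples in the study, and it is not taken as independent evidence. In it 2 of 12 genes fell, Atrx and Huwe1, beside 6.91% of all X-linked genes tested, and the median log2 change was -0.26, beside -0.25. Gpc4, a glypican next to Gpc3, had d-scores of 0.276 and 0.273 at 12 h and 0.230 and 0.238 at 24 h (log2 change -0.30, SE 0.0971, adjusted p = 0.315). Elf4, a transcription factor, stood at 0.306 and 0.312 and then at 0.211 and 0.231 (log2 change -0.66, SE 0.209, adjusted p = 0.294) on fewer reads. In both genes the 24 h samples lay below the 12 h samples, as in 51.4% of all X-linked genes tested, and neither passed the test. Alg13, an enzyme of N-glycosylation, had a log2 change of -0.18 (adjusted p = 0.0748 without the replicate block and 0.00444 with it).

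On autosomes 4 genes changed their allelic share, all of them already unbalanced before DOX. Pkhd1, which encodes fibrocystin (chr1:20057779-20618057), rose from 0.894 and 0.885 to 0.939 and 0.918 (log2 change 0.67, SE 0.101, adjusted p = 2.91e-06). Its Cast counts fell, from 405 and 415 to 175 and 256 reads (log2 change -0.95, SE 0.160, adjusted p = 0.0173). Nkain2 (log2 change -0.60), Aoah, acyloxyacyl hydrolase (-0.41), and Pcsk6, a proprotein convertase (-0.21), fell. The change of Aoah was -0.24 without 12 h replicate 2, and that of Pcsk6 was -0.14 without 12 h replicate 1 or without 24 h replicate 2. The count was 2, 7, 8 or 1 without 12 h replicate 1, 12 h replicate 2, 24 h replicate 1 or 24 h replicate 2, and DESeq2 called 0, with 20 lower and 30 higher at an unadjusted p under 0.05. Between the intervals 9 autosomal genes differed, 3 with a positive difference (Plxdc2 0.67, Pkhd1 0.77 and Pde4d 0.31 on the log2 scale) and 6 with a negative one (Nkain2, Aoah, Prr5l, Sdc2 and Pcsk6 among them), from -1.47 for Prr5l to -0.36 for Pcsk6.

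Total nascent transcription, both alleles together, changed in few genes between 12 and 24 h. Without the block 1 of 14524 genes passed (0.00689%), the autosomal gene Fgfr2. Fgfr2, a receptor of fibroblast growth factors (chr7:130162451-130266808), stood at 41.5 and 44.6 CPM at 12 h and at 17.2 and 23.9 CPM at 24 h (log2 change -1.06, SE 0.127, adjusted p = 0.00747). Both alleles fell, B6 by 1.12 on the log2 scale (SE 0.184, adjusted p = 0.00523) and Cast by 1.03 (SE 0.137, adjusted p = 0.000624). Its d-score stayed at 0.291 to 0.318 in the 4 samples. Without 12 h replicate 1, 12 h replicate 2 or 24 h replicate 1 its adjusted p was 0.0517, 0.166 or 0.12.

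X-linked genes had lower total reads at 24 h in 0 of 502 tested without the block, where the unadjusted p was under 0.05 for 75 lower and 11 higher, and with a median log2 change of -0.09, beside 0.01 for autosomal genes. limma-voom called 0 lower and DESeq2 7, and neither called one higher. With the block 23 were lower and 4 higher (0.819% and 0.654% of all genes). Aff2, a nuclear RNA-binding protein, stood at 88.0 and 76.0 CPM at 12 h and at 63.6 and 56.4 CPM at 24 h (log2 change -0.45, SE 0.0781, adjusted p = 0.00101 with the block). Ftx, a noncoding gene of the X inactivation centre that favours Xist, went from 12.8 and 13.5 to 8.79 and 8.07 CPM (log2 change -0.64, SE 0.12, adjusted p = 0.00271). Both genes were chosen on these same counts. Gm364, Sms, Zfp280c, Usp26, Fgf13 and 2210013O21Rik also fell with the block, by 0.90 to 0.35 on the log2 scale. Usp26 depends on the block: its log2 change was -0.43 (SE 0.0865) with the block and -0.42 (SE 0.319) without it. Without the block it was -0.75 and -0.0083 when 12 h replicate 1 or 2 was left out. It was -0.071 and -0.91 when 24 h replicate 1 or 2 was left out. Those fits do not pair samples of the same number.

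The 4 X-linked genes that rose with the block were Gpm6b, a membrane glycoprotein, Gpr143, a G protein-coupled receptor of melanosomes, Nr0b1 and Nhs. Nr0b1, a nuclear receptor of naive ESCs, stood at 20.3 and 19.7 CPM at 12 h and at 27.6 and 24.2 CPM at 24 h (log2 change 0.37, adjusted p = 0.0402). After correction for gene length its adjusted p was 0.144. Gpm6b stood at 1.42 and 1.64 CPM and then at 2.81 and 3.23 CPM (log2 change 0.98, SE 0.233, adjusted p = 0.023).

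With the block 96 autosomal genes were lower and 91 higher at 24 h. Sfmbt2, a Polycomb-group protein, stood at 203 and 202 CPM at 12 h and at 119 and 147 CPM at 24 h (log2 change -0.61, SE 0.074, adjusted p = 4.48e-06). Sfmbt2 holds a cluster of microRNA genes on the same strand. Gabrg3, a GABA receptor subunit, went from 77.1 and 68.9 to 41.8 and 51.5 CPM (log2 change -0.65) and gave 2 or 3 Cast reads a sample beside 585 to 1095 B6 reads. Pla2g4c, Patj, Fhit, Fam222a and Tubb3 fell by 0.53 to 0.83. Without the block the change of Fhit was -0.27 when 24 h replicate 1 was left out and -0.81 when 24 h replicate 2 was. Tubb3, a neuronal tubulin, stood at 15.2 and 11.7 CPM and then at 8.03 and 7.09 CPM.

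Of the autosomal genes that rose with the block, Liph, a lipase of phosphatidic acid, stood at 54.9 and 64.3 CPM at 12 h and at 82.0 and 82.8 CPM at 24 h (log2 change 0.47, SE 0.0729, adjusted p = 0.000348). Chst11, a chondroitin sulfotransferase, went from 54.7 and 54.7 to 74.2 and 73.6 CPM (log2 change 0.43). Bst1, an ectoenzyme of NAD metabolism, went from 4.12 and 2.71 to 6.98 and 6.01 CPM (log2 change 0.94, SE 0.172). These 3 genes were chosen on these same counts. Megf11, Ctsc (cathepsin C), Rgs3, Prmt8 and Zfp229 rose by 0.35 to 0.60 on the log2 scale. Without the block the change of Ctsc was 0.33 when 12 h replicate 1 was left out and 0.91 when 12 h replicate 2 was, and that of Megf11 was 0.27 in the latter case. Changes were small: 29 of the 96 and 29 of the 91 exceeded 0.5 on the log2 scale, and 5 and 3 exceeded 1.

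Gene length moved with total counts in 1 of the 2 replicates. In replicate 1 the median log2 change of autosomal genes ran from 0.19 at up to 5 kb to -0.13 above 400 kb, and in replicate 2 from 0.02 to -0.02. The autosomal genes lower with the block had a median length of 106 kb and the higher ones of 34.5 kb. With each sample's trend on length removed as well, 107 autosomal genes were lower and 115 higher. Of the genes that passed with the block, 84 of 96 (87.5%) and 63 of 91 (69.2%) passed again, which is 78.5% and 54.8% of the length-corrected lists. The part of length in the single genes was not tested further.

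**Figure D5:**
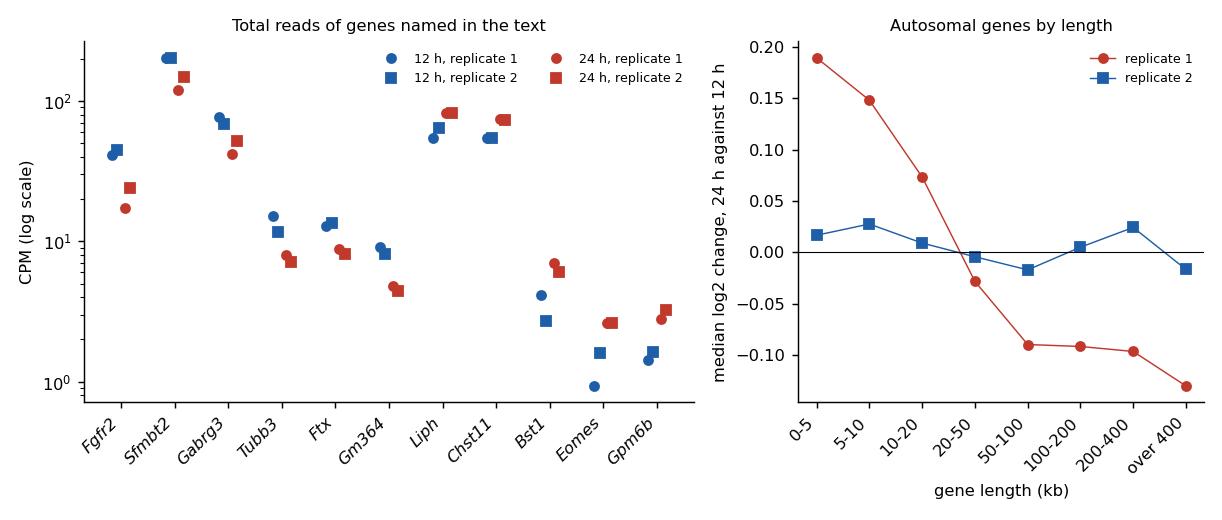
Left, CPM (log scale) of 11 genes in the 12 h (blue) and 24 h (red) samples, circles for replicate 1 and squares for replicate 2; right, median log2 change of total counts from 12 to 24 h of autosomal genes by gene length, a line for each replicate. The 11 genes were named after tests on these same samples. They run from Fgfr2 at 41.5 and 44.6 against 17.2 and 23.9 CPM to Gpm6b. The length trend is seen in replicate 1, from 0.19 to -0.13.

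Listed pathways of ESCs and of stress showed little. Over 17 lists with 295 tested genes, 0 passed without the block by edgeR, limma-voom or DESeq2, while 17 were higher and 11 lower by the unadjusted p under 0.05, and list medians ran from -0.17 to 0.15, beside 0.01 for all genes. With the block 3 genes rose, Nr0b1, Zic2 and Insig1, and 1 fell, Rragd, beside 0.654% and 0.819% of all genes. Zic2, a transcription factor of the formative state, stood at 21.5 and 23.3 CPM at 12 h and at 26.9 and 31.1 CPM at 24 h (log2 change 0.37, adjusted p = 0.0263; 0.147 with length correction). Insig1, a regulator of cholesterol synthesis, lost its adjusted p of 0.0499 with length correction (0.15), while its change was 0.13 without 12 h replicate 1 and 0.45 without 12 h replicate 2 in the fit without the block. Rragd, a GTPase of lysosomal amino acid sensing, kept its adjusted p (0.0213 and 0.0245). The list of ER folding genes had the highest median, 0.15, which was 0.06 with length correction, with 0 of 22 genes past the threshold in either fit. The list of two-cell-like genes had the lowest, -0.17, which was -0.30 with length correction. In it 0 of 11 genes passed with or without the block.

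Markers of other cell types were summed in the same way. The neural list summed to 23.2 and 19.1 CPM at 12 h and to 16.1 and 13.1 CPM at 24 h, with 1 of 6 genes at 0 and Tubb3 lower with the block. The trophoblast list (7 genes) summed to 18.6 and 18.7 CPM and then to 15.9 and 15.0 CPM. In it Eomes rose with the block, from 0.932 and 1.59 to 2.61 and 2.60 CPM, and Tfap2c fell, from 12.5 and 13.5 to 8.33 and 9.82 CPM. The primitive endoderm list summed to 346 to 380 CPM, of which Lama1 gave 335 to 368 CPM. The part of these genes in the changes above was not tested.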

How the data were processed

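TT-seq libraries of TX1072 cells were grouped by the time of DOX in their labels. The authors mapped read pairs to mm10 with strain-specific bases masked, assigned pairs to an allele at those bases, and counted them by strand over whole genes, introns included. The deposited values are counts of all, B6 and Cast read pairs per gene, and the deposited fraction is B6 over B6 plus Cast. The submitters' processing notes name TopHat2 2.1.0 and featureCounts 1.5.1, while the study's methods for TT-seq name STAR.

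Counts of all 10 samples were fitted with edgeR 4.0.16 (R 4.3.3; TMM, quasi-likelihood F test, Benjamini-Hochberg adjustment over all genes tested, threshold 0.05). CPM are TMM-scaled. The B6 share was fitted on B6 and Cast counts in 20 columns with a term for each sample, over genes that had 10 or more allelic reads in each sample. DESeq2 1.42.0, limma 3.58.1, other normalizations and filters, the replicate block and leaving out each library were alternatives. Total counts of same-numbered samples deviated together (r = 0.184 to 0.407 across genes, all 10 pairs of times), so the number was taken as a block there. The fits were also run on simulated counts of well-read genes with changes larger than most seen here. That run does not show how often smaller changes are found. Gene lengths were the deposited gene spans, and gene types came from GENCODE for 23633 of 24386 genes. Members and gene lists were chosen with earlier results of these data known. Named genes were, per test and direction and for X-linked and autosomal genes apart, up to 10 with the smallest p (15 for the lower B6 share on the X) that moved alike in both replicate numbers, up to 8 from the block fit of total counts, and listed genes. Positions and other groupings, and genes outside this rule, were chosen after their values were seen. Counting error is one part of the spread only, and reads carry no molecular identifiers.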

Additional observations from a re-analysis of the deposited data

Results flagged for a closer look

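The difference between the first and the second 12 h of DOX in the B6 share, tested as an interaction term in 1 edgeR model, passed in 101 of 362 X-linked genes, and in all 101 the change was smaller in the second interval. Genes had 10 or more allelic reads in each sample, and the 12 h samples enter both intervals. The count was 86 without 0 h replicate 1 and 113 with the replicate block.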

How the results depend on the processing

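The count of X-linked genes with a lower B6 share (25) was 2 with DESeq2, 73 adjusted over X-linked genes alone and 11 to 17 when 1 library was left out. That of autosomal genes (4) was 0 with DESeq2, 8 at a minimum of 1 allelic read, 2 adjusted over autosomal genes alone and 1 to 8 when 1 library was left out. The smaller change in the second interval (101) was called in 56 genes with DESeq2, and 171 genes differed between the intervals when adjusted over X-linked genes alone. Lower B6 counts (6) were called in 12 genes without 0 h replicate 1, an alternative chosen after seeing the data, and in 1 to 2 when 1 library was left out. Total counts called 7 X-linked and 15 autosomal genes with DESeq2, 3 and 16 with no filter on low counts, 7 X-linked genes adjusted over that class alone, and 0 to 1 autosomal genes when 1 library was left out. With the replicate block, total counts called 27 X-linked and 187 autosomal genes, while in X-linked genes alone B6 counts called 25 and Cast counts 1. Block and gene-length correction together, also chosen after seeing the data, gave 25 and 222. The Xist difference passed with the block (log2 -0.39) and with both (-0.40). In the B6 to Cast ratio, samples of the same number did not deviate together (r = 0.015 to 0.0575 over 10 pairs of times, across 9406 genes, which are not independent), so they share only a number there. The block then gave 37 X-linked and 12 autosomal genes for the B6 share and left the difference of the median d-score at -0.0426. That difference was -0.0370 at a minimum of 50 allelic reads and -0.0337 for the pooled reads of all X-linked genes. With 1 library left out at a time, the log2 change of the B6 share took both signs in Kdm5c (-0.18 to 0.19), Rlim (-0.12 to 0.18), Eif2s3x (-0.053 to 0.065), Ftx (-0.31 to 0.11), Utp14a (-0.055 to 0.050) and Pbdc1 (-0.26 to 0.016). None of these genes passed the test of the B6 share. The cause of these differences was not tested. With 2 samples a time and a median of 256 allelic reads in X-linked genes, small changes in poorly read genes were not detectable.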
